A study of Mus musculus with 12 samples.

Results

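D cyclins and cyclin-dependent kinase (CDK) inhibitors are the accelerator and the brake of the step from G1 into S phase. They were followed here in the cochlea of mice at postnatal day 7. The set has 10 genes: the D cyclins Ccnd1, Ccnd2 and Ccnd3, the Cip/Kip inhibitors Cdkn1a, Cdkn1b and Cdkn1c, and the INK4 inhibitors Cdkn2a, Cdkn2b, Cdkn2c and Cdkn2d. Each gene was taken as the row with its exact symbol in the deposited expression table. A position given below for a gene is that of its row, which can be wider than the gene. In GENCODE M21 (mm10) the rows of Ccnd1, Ccnd2 and Ccnd3 also span the neighbours Lto1, 9330179D12Rik and Bysl. Of the 10 genes, 9 had such a row among 23598 rows. Cdkn2d stands only in a row merged with a neighbouring gene. A filter on low values left 14581 rows for testing, 8 of them from the set.

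The 12 samples form 4 groups of 3: b-catenin-OE together with Notch1-KO (called the double group here), b-catenin-OE, Notch1-KO and Control. OE and KO in the labels are read as overexpression and knockout, and the labels name no Cre line, floxed allele or inducing agent. What the Control animals carried is likewise not given in the sources used here. Each sample is total RNA from the apical and middle cochlear turns, the upper part of the spiral that houses the hearing organ, pooled from at least 6 cochleae. The labels leave unstated whether a group's samples are separate pools, so a p-value reflects the scatter of these samples, and that scatter may be technical.

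D cyclins bind CDK4 or CDK6, and the complex phosphorylates the retinoblastoma protein, which releases E2F factors and lets S phase genes be transcribed. Cip/Kip proteins bind cyclin-CDK complexes and INK4 proteins bind CDK4 and CDK6 alone, and both hold cells in G1. In the mouse organ of Corti, Cdkn1b (p27Kip1) is switched on as progenitors leave the cell cycle and stays on in supporting cells, the cells that surround the sensory hair cells. Ccnd1 is a known target of b-catenin and TCF/LEF in other mouse and human tissues. Cdkn1a (p21Cip1) is the classical p53 target.

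Expression is given as FPKM, the number of sequenced fragments per kilobase of a transcript, scaled by the depth of its library, so levels of different genes can be set side by side. Differences were tested with limma on log2(FPKM + 0.5), adjusted by Benjamini-Hochberg over all rows tested in a comparison, with a threshold of 0.05. The ± beside a log2 difference is its standard error, and the ± beside a mean FPKM is the SD (n = 3). "Rose" and "fell" are used only for differences past that threshold.

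The samples numbered 1 stood apart. Over 5889 well-expressed genes samples 2 and 3 of a group differed with a robust SD of 0.0756 to 0.133 on the log2 scale, and sample 1 differed from either of them with one of 0.293 to 0.446. The targeted Notch1 had 8.62, 5.70 and 5.77 FPKM in the double group, 37.6, 15.7 and 16.7 FPKM in b-catenin-OE, 9.16, 7.63 and 7.56 FPKM in Notch1-KO, and 24.3, 14.7 and 16.6 FPKM in Control. All samples labelled as knockouts lay below all others. Notch1 fell in the double group versus Control (log2 difference -1.39 ± 0.30, adjusted p = 0.0113). In Notch1-KO versus Control the difference of -1.11 ± 0.30 had an adjusted p of 0.160. Of 12 settings that left out 1 sample it passed in 1, without sample 1 of b-catenin-OE (adjusted p = 0.0247). Ctnnb1, the gene of b-catenin, did not pass in any comparison. Axin2, a feedback target of b-catenin, rose in the double group versus Control (1.54 ± 0.20, adjusted p = 0.000544) and had 0.73 ± 0.20 in b-catenin-OE versus Control (adjusted p = 0.106). This Axin2 difference was 0.99 and passed without sample 1 of b-catenin-OE (adjusted p = 0.00289), 1 of 12 such settings, and in no other of them. All 14 hair cell and all 14 supporting cell markers in the table were above 0 in every sample.

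Of the 8 tested genes, 3 rose and 1 fell in the double group versus Control. Ccnd1, Cdkn1a and Cdkn1c rose 3.30-fold, 2.78-fold and 1.76-fold, and Cdkn1b fell to 0.571 times its Control level. Of all rows tested, 12.5% passed in this comparison, 5.88% as higher and 6.64% as lower. The samples of both groups did not overlap for 5 of the 8 genes, and for 33.5% of all rows. In b-catenin-OE versus Control, Cdkn1a alone passed, as higher, where 2.24% of all rows passed (1.36% higher, 0.878% lower). No overlap was found for 2 of the 8, and for 16.5% of all rows. In Notch1-KO versus Control none of the 8 passed limma's adjusted threshold, where 0.857% of all rows did (0.535% higher, 0.322% lower), and 2 of the 8 had an unadjusted p under 0.05. No overlap was found for 3 of the 8, and for 16.1% of all rows. Against b-catenin-OE, the double group had 1 riser (Cdkn1c) and 1 faller (Cdkn1b), where 2.72% of rows passed (1.22% higher, 1.5% lower). No overlap was found for 4 of the 8, and for 28.7% of all rows. Against Notch1-KO it had 3 risers (Ccnd1, Ccnd2 and Cdkn1a) and 1 faller (Cdkn1b), where 10.1% of rows passed (4.91% higher, 5.21% lower). No overlap was found for 6 of the 8, and for 34.2% of all rows. The test of whether the double group departed from the sum of the single changes called 0 of the 8 in limma (0.0206% of all rows), with 2 of the 8 at an unadjusted p under 0.05. The comparisons share samples, so their results are not independent. Over the 5 comparisons of 2 groups limma made 11 calls among these genes, and when a group's samples 2 and 3 entered as their mean it kept 1 of them, Cdkn1a in the double group versus Notch1-KO. No alternative tool was run on these tests, because the values are not counts.

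**Figure D1:**
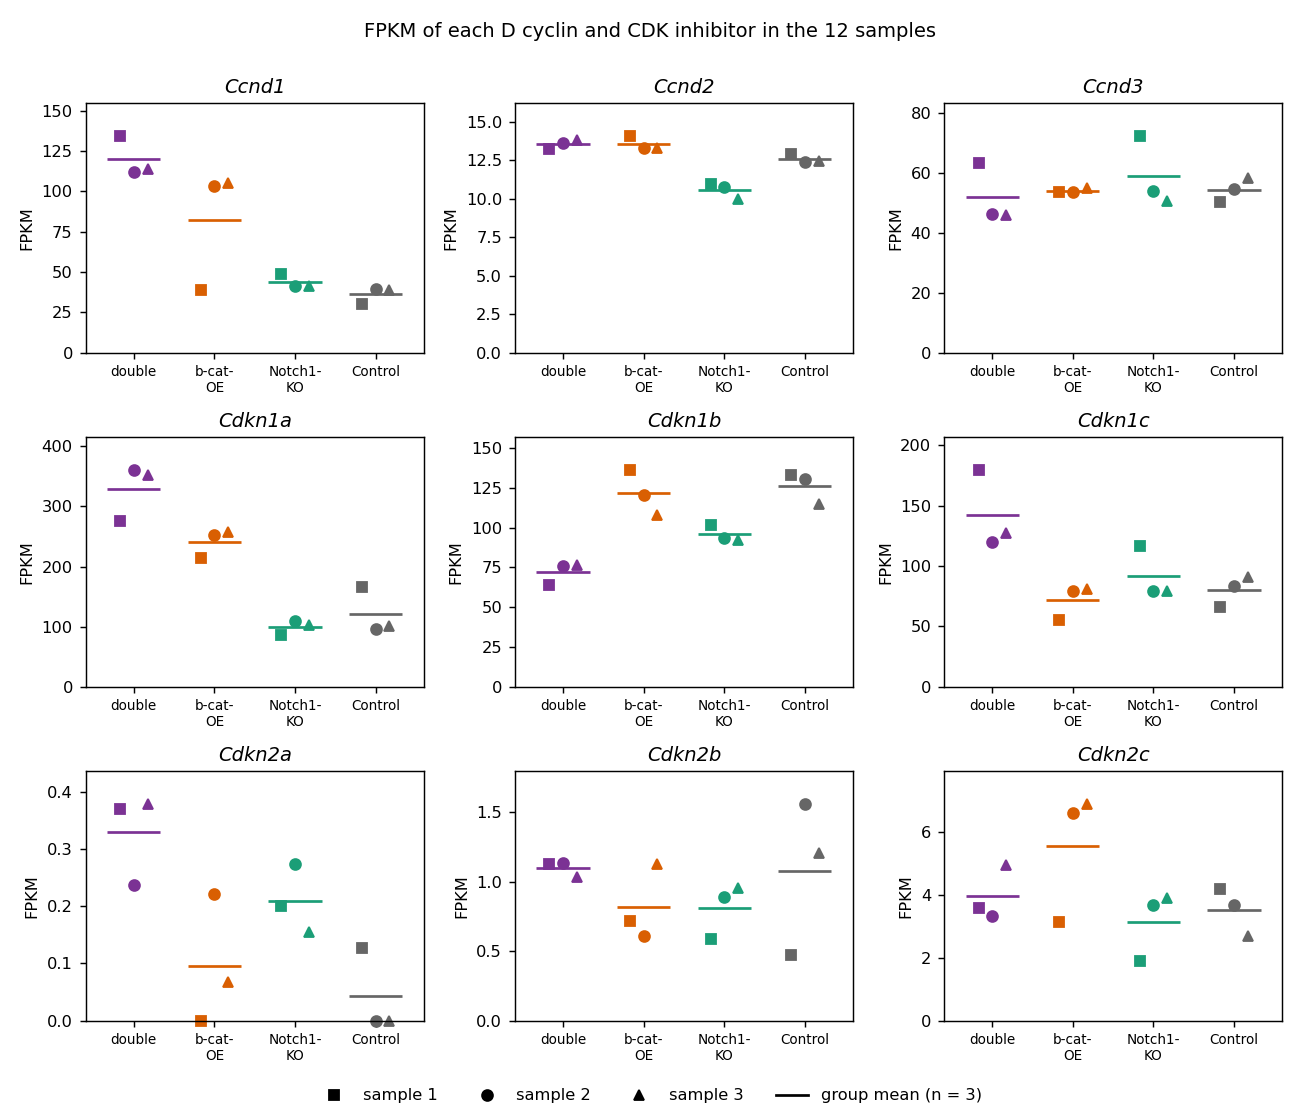
FPKM of each gene in every sample, on a linear axis from 0 for each gene, with a symbol for each sample and a line for the group mean (n = 3); groups run double, b-catenin-OE, Notch1-KO and Control. Ccnd1 and Cdkn1a are highest in the 3 double samples and Cdkn1b is lowest there, while sample 1 of b-catenin-OE has 38.7 FPKM of Ccnd1 against 104 and 105 FPKM in the other two.

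Ccnd1 (chromosome 7, 144914846 to 144941305, mm10) is the D cyclin that many mitogens induce. It had 134, 112 and 114 FPKM in the double group, 38.7, 104 and 105 FPKM in b-catenin-OE, 48.8, 41.5 and 41.1 FPKM in Notch1-KO, and 30.1, 39.3 and 38.9 FPKM in Control. The double samples lay above all others, and sample 1 of b-catenin-OE lay within the Control range while samples 2 and 3 were far above it. Group means were 120.0 ± 12.5 FPKM in the double group, 82.4 ± 37.9 FPKM in b-catenin-OE, 43.8 ± 4.34 FPKM in Notch1-KO and 36.1 ± 5.22 FPKM in Control. Ccnd1 rose in the double group by 1.72 ± 0.31 against Control (adjusted p = 0.00339) and by 1.44 ± 0.31 against Notch1-KO (adjusted p = 0.0115). Both calls held when any 1 of the 12 samples was left out. The difference of the double group from b-catenin-OE was 0.67 ± 0.31 (adjusted p = 0.277). It was 1.78 between samples 1 and 0.11 between the means of samples 2 and 3.

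In b-catenin-OE versus Control, Ccnd1 differed by 1.05 ± 0.31, which did not pass (adjusted p = 0.119). Without sample 1 of b-catenin-OE the difference was 1.53 and passed (adjusted p = 0.000146), the only 1 of 12 settings leaving out 1 sample in which it did. By sample number it was 0.36 between samples 1 and 1.40 between the means of samples 2 and 3. The authors' deposited table gives Ccnd1 a log2 fold change of 1.19 for b-catenin-OE versus Control, with a p-value of 5e-05, the lowest it holds. That p-value is not labelled as adjusted, and limma's unadjusted p was 0.00516. In Notch1-KO versus Control the samples did not overlap, but the difference of 0.28 ± 0.31 did not pass (adjusted p = 0.940).

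In GENCODE M21 (mm10), Ccnd1 shares 23.4% of its exon bases with Lto1 on the opposite strand, which stands in the table under its older symbol Oraov1. Whether the libraries kept strand is not given in the sources used here, so reads of the shared bases could be counted for either gene. Oraov1 had 14.6, 17.0 and 16.1 FPKM in the double group, 8.06, 15.5 and 16.0 FPKM in b-catenin-OE, 12.2, 16.4 and 16.3 FPKM in Notch1-KO, and 9.15, 15.7 and 15.6 FPKM in Control. Its levels stayed well under those of Ccnd1, and its difference of 0.27 ± 0.26 in the double group versus Control did not pass (adjusted p = 0.585).

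Ccnd2 (chromosome 6, 127125164 to 127212419) had lower levels and a narrow spread. It had 13.2, 13.6 and 13.8 FPKM in the double group, 14.1, 13.3 and 13.3 FPKM in b-catenin-OE, 10.9, 10.8 and 9.97 FPKM in Notch1-KO, and 12.9, 12.4 and 12.4 FPKM in Control. The Notch1-KO samples were below all others, and the double and b-catenin-OE samples were above Control. Ccnd2 rose in the double group versus Notch1-KO by 0.35 ± 0.09 (adjusted p = 0.0291). That call was lost when sample 2 or 3 of the double group or of Notch1-KO was left out (adjusted p = 0.0898 to 0.133 in these 4 settings). In Notch1-KO versus Control the difference was -0.24 ± 0.09 (adjusted p = 0.391). It was -0.23 between samples 1 and -0.25 between the means of samples 2 and 3, so the gap was alike in both.

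Ccnd3 (chromosome 17, 47505051 to 47611492) was more abundant than Ccnd1 in Control, at 54.3 ± 3.95 FPKM, and did not pass in any comparison. It had 63.3, 46.2 and 45.8 FPKM in the double group, 53.7, 53.4 and 54.8 FPKM in b-catenin-OE, 72.3, 53.8 and 50.4 FPKM in Notch1-KO, and 50.2, 54.6 and 58.1 FPKM in Control. The groups overlapped, except that samples 2 and 3 of the double group were lowest. In the double group versus Control the difference was -0.08 ± 0.15 (adjusted p = 0.783). It was 0.33 between samples 1 and -0.29 between the means of samples 2 and 3, so the sample numbers had opposite signs.

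With these levels Ccnd1 made up 63.7%, 65.2% and 65.6% of the summed D cyclin FPKM in the double samples. Its share was 36.4%, 60.8% and 60.7% in b-catenin-OE and 37.0%, 39.1% and 40.5% in Notch1-KO. The Control samples had shares of 32.3%, 37.0% and 35.6%. Ccnd3 was the most abundant D cyclin in Control and in Notch1-KO, and Ccnd1 in the double group and in samples 2 and 3 of b-catenin-OE. The summed D cyclin level was 211, 172 and 173 FPKM in the double group, 106, 170.2 and 173 FPKM in b-catenin-OE, 132, 106 and 101 FPKM in Notch1-KO, and 93.2, 106 and 109 FPKM in Control. Sample 1 of b-catenin-OE again lay with the Control samples.

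**Figure D2:**
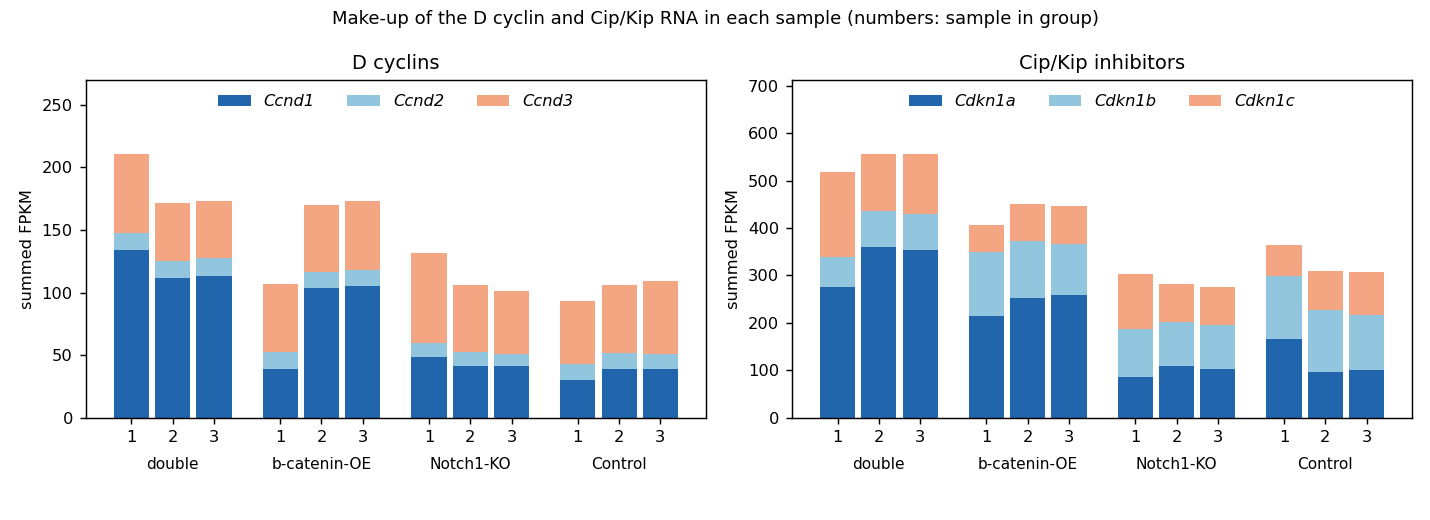
Summed FPKM of the D cyclins and of the Cip/Kip inhibitors in each sample, stacked by gene, on linear axes from 0; samples run double, b-catenin-OE, Notch1-KO and Control. Ccnd1 fills 63.7% to 65.6% of the D cyclin bar in the double group and 32.3% to 37.0% in Control, and Cdkn1b fills 12.3% to 13.7% of the Cip/Kip bar in the double group and 36.5% to 42.1% in Control.

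Cdkn1a and Cdkn1b, inhibitors of one family, moved in opposite directions in the double group. Their promoters are shown with letter matches to known elements, and the part of these matches in the changes was not tested. The sequences are from RefSeq on GRCm38.p6, run from 250 bases before to 50 bases after an annotated start, and all lie on the plus strand. Of the 10 genes, 7 matched the table, with 11 promoters; Ccnd1, Ccnd2 and Cdkn1c were not among them. Capitals mark a p53 response element in the upstream Cdkn1a promoter (chr17:29090729-29091028), GC boxes (GGGCGG) in the downstream Cdkn1a promoter (chr17:29093519-29093818), and a GC box and CCAAT boxes, read on either strand, in the Cdkn1b promoter (chr6:134920151-134920450).
Cdkn1a upstream promoter: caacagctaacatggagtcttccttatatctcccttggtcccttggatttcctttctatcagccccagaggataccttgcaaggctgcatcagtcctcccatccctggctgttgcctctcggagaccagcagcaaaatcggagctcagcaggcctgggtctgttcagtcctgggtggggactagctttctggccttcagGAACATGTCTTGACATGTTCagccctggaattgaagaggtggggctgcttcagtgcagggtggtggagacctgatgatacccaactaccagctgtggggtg
Cdkn1a downstream promoter: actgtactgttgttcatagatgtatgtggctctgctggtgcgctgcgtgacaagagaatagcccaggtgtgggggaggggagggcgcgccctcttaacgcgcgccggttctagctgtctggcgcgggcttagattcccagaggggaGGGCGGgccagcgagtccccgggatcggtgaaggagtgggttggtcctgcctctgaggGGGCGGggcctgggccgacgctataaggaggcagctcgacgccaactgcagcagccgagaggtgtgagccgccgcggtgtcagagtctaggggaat
Cdkn1b promoter: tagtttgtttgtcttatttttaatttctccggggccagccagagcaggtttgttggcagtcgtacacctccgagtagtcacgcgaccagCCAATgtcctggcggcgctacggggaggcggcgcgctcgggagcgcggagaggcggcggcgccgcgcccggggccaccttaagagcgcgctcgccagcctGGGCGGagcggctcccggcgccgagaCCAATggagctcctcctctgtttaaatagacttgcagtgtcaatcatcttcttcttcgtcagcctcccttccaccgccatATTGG

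The p53 element was searched as a pair of abutting decamers of the p53 consensus on either strand, with at most 1 mismatch in all. Of 32851 promoters of the same length 22 hold such a match (0.067%), among them the upstream Cdkn1a promoter, where it begins 51 bases before the annotated start. The letters GGGCGG occur in 35.7% of all promoters and CCAAT in 37.4%, on either strand. The last CCAAT match of Cdkn1b begins 45 bases after its annotated start. CTTTGA, the core of TCF/LEF sites, occurs in 16.0% of all promoters and in none of the 11 promoters of the set. TGGGAA, the core of RBPJ sites, through which Notch acts, occurs in 25.6% of all promoters and in 3 of the 11 of the set, 1 each of Cdkn1a, Cdkn2a and Cdkn2d. In the downstream Cdkn1a promoter it was found 1 time, on the opposite strand. These are matches of letters in short windows, and no binding was measured.

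Cdkn1a (chromosome 17, 29090986 to 29100722) reached the highest levels of the set. It had 276, 361 and 353 FPKM in the double group, 214, 252 and 258 FPKM in b-catenin-OE, 85.2, 109 and 103 FPKM in Notch1-KO, and 165, 96.6 and 102 FPKM in Control. The double samples lay above b-catenin-OE, and both lay above all Control and Notch1-KO samples, which overlapped. Means were 330 ± 47.1 FPKM in the double group, 241 ± 23.9 FPKM in b-catenin-OE, 99.2 ± 12.5 FPKM in Notch1-KO and 121 ± 38.2 FPKM in Control. Cdkn1a rose in the double group by 1.47 ± 0.20 against Control (adjusted p = 0.000622) and by 1.72 ± 0.20 against Notch1-KO (adjusted p = 0.00026). The first is 2.78-fold and the second 3.31-fold. Both calls held when any 1 of the 12 samples was left out.

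Cdkn1a also rose in b-catenin-OE versus Control, by 1.03 ± 0.20 or 2.04-fold (adjusted p = 0.0201). This call was lost without sample 2 or 3 of b-catenin-OE or of Control (adjusted p = 0.0939 to 0.102 in these 4 settings) and in a model of the 2 groups alone (adjusted p = 0.150). The double group exceeded b-catenin-OE in every sample, but the difference of 0.45 ± 0.20 did not pass (adjusted p = 0.265). In Notch1-KO versus Control the difference was -0.25 ± 0.20 (adjusted p = 0.869), with -0.95 between samples 1 and 0.10 between the means of samples 2 and 3. The departure from the sum of the single changes was 0.70 ± 0.28 (adjusted p = 0.517). Trp53, the gene of p53, had 35.8, 30.03 and 33.4 FPKM in the double group, 24.7, 28.4 and 28.6 FPKM in b-catenin-OE, 28.4, 26.5 and 26.2 FPKM in Notch1-KO, and 26.6, 24.1 and 28.5 FPKM in Control. The double samples lay above all others, and the difference from Control of 0.32 ± 0.10 did not pass (adjusted p = 0.0718). Of 12 settings that left out 1 sample it passed in 1, without sample 1 of b-catenin-OE (adjusted p = 0.0417).

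Cdkn1b (chromosome 6, 134916323 to 134925525) was lowest in the double group. It had 63.6, 75.6 and 76.4 FPKM in the double group, 136, 121 and 108 FPKM in b-catenin-OE, 102, 93.5 and 92.4 FPKM in Notch1-KO, and 133, 131 and 115 FPKM in Control. The double samples were lowest, the Notch1-KO samples lay between them and the rest, and b-catenin-OE overlapped Control. Means were 71.9 ± 7.18 FPKM in the double group, 121 ± 14.3 FPKM in b-catenin-OE, 95.8 ± 4.99 FPKM in Notch1-KO and 126 ± 9.91 FPKM in Control. Cdkn1b fell in the double group by 0.81 ± 0.12 on the log2 scale against Control (adjusted p = 0.000967) and by 0.75 ± 0.12 against b-catenin-OE (adjusted p = 0.00721). These are 0.571 and 0.594 times the other group's level. Both calls held when any 1 of the 12 samples was left out.

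Against Notch1-KO, Cdkn1b fell in the double group by 0.42 ± 0.12 (adjusted p = 0.0440), to 0.749 times its level. That call was lost in 9 of 12 settings that left out 1 sample, the exceptions being sample 1 or 3 of b-catenin-OE and sample 1 of Control. In Notch1-KO versus Control the difference of -0.39 ± 0.12 did not pass (adjusted p = 0.218), although the samples did not overlap. It was -0.39 between samples 1 and -0.39 between the means of samples 2 and 3. In b-catenin-OE versus Control it was -0.06 ± 0.12 (adjusted p = 0.924). The authors' deposited table gives Cdkn1b a log2 fold change of -0.40 in Notch1-KO versus Control with a p-value of 0.0232, and -0.05 in b-catenin-OE with a p-value of 0.760. These p-values are not labelled as adjusted, and limma's unadjusted p was 0.00611 and 0.639.

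**Figure D3:**
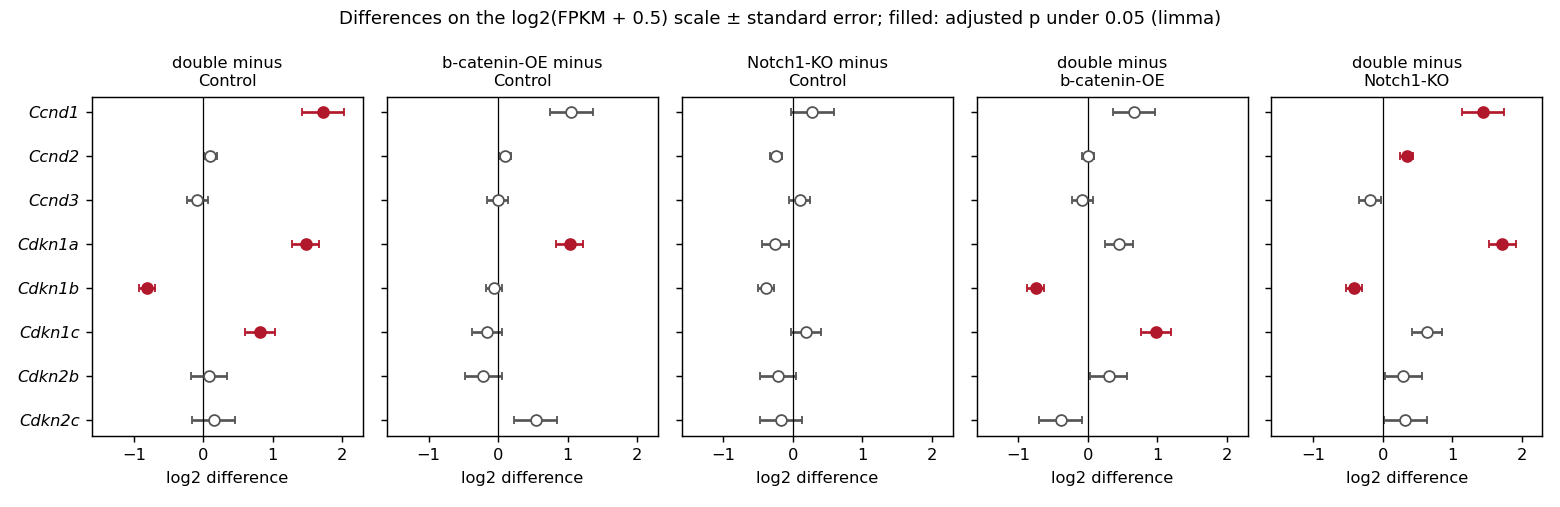
Log2 differences of the 8 tested genes in the 5 comparisons of 2 groups, the group named first minus the other on the horizontal axis, with bars for the standard error and filled points for those past the adjusted threshold. Filled points to the right are Ccnd1, Cdkn1a and Cdkn1c in the double group versus Control and Cdkn1a in b-catenin-OE versus Control. Others to the right are Cdkn1c in the double group versus b-catenin-OE, and Ccnd1, Ccnd2 and Cdkn1a in the double group versus Notch1-KO. Cdkn1b stands to the left at -0.81, -0.75 and -0.42 in the 3 comparisons of the double group.

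Cdkn1c (p57Kip2; chromosome 7, 143458336 to 143461299) is imprinted and is expressed from the maternal allele in mice. It had 180, 120.2 and 127 FPKM in the double group, 55.6, 79.2 and 81.2 FPKM in b-catenin-OE, 117, 79.1 and 79.1 FPKM in Notch1-KO, and 66.2, 83.1 and 91.0 FPKM in Control. All double samples were above all others, and sample 1 was the highest in both groups with Notch1-KO. Cdkn1c rose in the double group by 0.81 ± 0.22 against Control (adjusted p = 0.0294) and by 0.97 ± 0.22 against b-catenin-OE (adjusted p = 0.0388). The first difference was 1.44 between samples 1 and 0.50 between the means of samples 2 and 3. Both calls depended on single samples. The first was lost without sample 1 or 3 of the double group or sample 1 or 2 of Control (adjusted p = 0.0548 to 0.104). The second was lost in 10 of 12 settings that left out 1 sample, the exceptions being sample 1 of Notch1-KO and sample 1 of Control.

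Against Notch1-KO, Cdkn1c in the double group differed by 0.63 ± 0.22 (adjusted p = 0.0935). Of 12 settings that left out 1 sample it passed in 1, without sample 1 of Notch1-KO (0.82, adjusted p = 0.0413). The single changes against Control were -0.16 ± 0.22 in b-catenin-OE (adjusted p = 0.856) and 0.18 ± 0.22 in Notch1-KO (adjusted p = 0.950). The departure from their sum was 0.79 ± 0.30 (adjusted p = 0.484). It was 0.87 in samples 1 and 0.76 in the means of samples 2 and 3. GENCODE M21 places Gm44732 on the opposite strand over 30.7% of the exon bases of Cdkn1c, so the same limit on strand applies.

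The ratio of Cdkn1a to Cdkn1b FPKM separated the groups with b-catenin-OE from the others. It was 4.33, 4.78 and 4.62 in the double group and 1.57, 2.09 and 2.39 in b-catenin-OE. The Notch1-KO samples had ratios of 0.839, 1.17 and 1.12, and the Control samples of 1.24, 0.740 and 0.888. No double sample overlapped any other group. Cdkn1b made up 12.3%, 13.6% and 13.7% of the summed Cip/Kip FPKM in the double group and 33.6%, 26.7% and 24.1% in b-catenin-OE. Its share was 33.4%, 33.2% and 33.6% in Notch1-KO and 36.5%, 42.1% and 37.3% in Control. The summed Cip/Kip level was 519, 557 and 556 FPKM in the double group, 406, 451 and 447 FPKM in b-catenin-OE, 304, 282 and 275 FPKM in Notch1-KO, and 364, 310.2 and 307 FPKM in Control. Both sums were high in the double group, so the Cip/Kip level per D cyclin level stayed between 2.46 and 3.24 there. The b-catenin-OE samples had 3.81, 2.65 and 2.58, the Notch1-KO samples 2.30, 2.66 and 2.71, and the Control samples 3.91, 2.92 and 2.81. These sums and ratios are descriptions and were not tested.

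**Figure D4:**
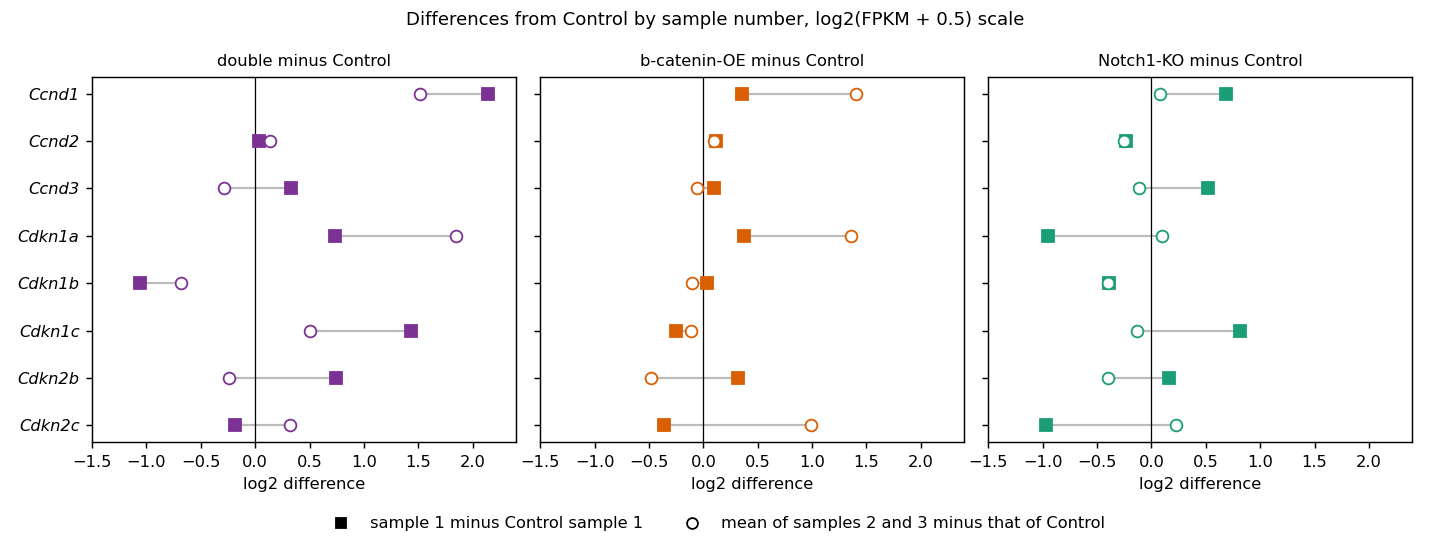
Log2 differences of the 8 tested genes from Control in the double group, b-catenin-OE and Notch1-KO, given separately for samples 1 (squares) and for the means of samples 2 and 3 (circles), joined by a line. For Ccnd1 in b-catenin-OE versus Control the pair is 0.36 and 1.40, and for Cdkn1b in Notch1-KO versus Control it is -0.39 and -0.39.

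The INK4 inhibitors with a row of their own, Cdkn2a, Cdkn2b and Cdkn2c, were low next to the Cip/Kip genes. Of these, no tested one passed in any comparison. Cdkn2c (p18Ink4c; chromosome 4, 109660876 to 109666811) had 3.61, 3.34 and 4.96 FPKM in the double group, 3.15, 6.63 and 6.91 FPKM in b-catenin-OE, 1.89, 3.68 and 3.90 FPKM in Notch1-KO, and 4.18, 3.70 and 2.70 FPKM in Control. Samples 2 and 3 of b-catenin-OE were the highest, and its sample 1 lay within Control. The difference of b-catenin-OE from Control was 0.54 ± 0.31 (adjusted p = 0.497), with -0.36 between samples 1 and 0.99 between the means of samples 2 and 3. The authors' deposited table gives Cdkn2c a log2 fold change of 0.66 there, with a p-value of 0.0382 that is not labelled as adjusted. In limma the unadjusted p was 0.107.

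Cdkn2b (p15Ink4b; chromosome 4, 89305247 to 89311224) had 1.13, 1.14 and 1.03 FPKM in the double group, 0.717, 0.610 and 1.13 FPKM in b-catenin-OE, 0.589, 0.890 and 0.953 FPKM in Notch1-KO, and 0.474, 1.56 and 1.20 FPKM in Control. The double samples were close together, and the Control samples spanned the range of all groups. The double group differed from Control by 0.09 ± 0.26 (adjusted p = 0.876).

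Cdkn2a (chromosome 4, 89274473 to 89294619), which encodes both p16Ink4a and Arf from alternative first exons, did not pass the filter on low values. It had 0.370, 0.238 and 0.379 FPKM in the double group and 0.200, 0.274 and 0.156 FPKM in Notch1-KO. It is listed at 0 in sample 1 of b-catenin-OE, with 0.221 and 0.0673 FPKM in samples 2 and 3, and in samples 2 and 3 of Control, with 0.126 FPKM in sample 1. The gene row does not separate the products, and all these values are below 0.5 FPKM. With no filter limma called Cdkn2a as higher in the double group versus Control (0.62 ± 0.14 on the log2(FPKM + 0.5) scale, adjusted p = 0.0205), and in no other comparison.

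Cdkn2d (p19Ink4d) keeps mouse hair cells out of the cell cycle after birth. Its signal stands in 1 row together with Ap1m2, a clathrin adaptor subunit, and cannot be split. The merged row had 82.7, 95.6 and 90.6 FPKM in the double group, 80.6, 82.7 and 77.1 FPKM in b-catenin-OE, 103, 103 and 104 FPKM in Notch1-KO, and 66.0, 95.7 and 97.3 FPKM in Control. The Notch1-KO samples were the highest, and the row did not pass in any comparison (adjusted p from 0.425). Nothing is read from it about Cdkn2d.

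Over the 8 tested genes the median log2 difference versus Control was 0.13 in the double group (-0.02 over all rows tested), 0.05 in b-catenin-OE (-0.01 over all rows) and -0.19 in Notch1-KO (-0.01 over all rows). Across the 12 samples the log2 levels of Cdkn1b and Cdkn1c had a Pearson r of -0.86, and those of Ccnd1 and Cdkn1a of 0.80. These are descriptions over samples that fall into 4 groups.

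The genes most like each member over the 12 samples were ranked by Pearson r of log2(FPKM + 0.5), among 11734 genes with a mean of at least 1 FPKM. For Ccnd1 they were Etv4, Mpg, Fam84a, Pkdcc and Mylk4 (r 0.974 to 0.980). Etv4 had 34.6 FPKM in the double group, 23.1 FPKM in b-catenin-OE, 12.7 FPKM in Notch1-KO and 11.1 FPKM in Control. For Cdkn1a they were Aldh1a3, N28178, Tcf4, Pdlim5 and Pex5l (r 0.982 to 0.987). Aldh1a3, an enzyme that makes retinoic acid, had a mean of 308 FPKM in the double group, 123 FPKM in b-catenin-OE, 9.49 FPKM in Notch1-KO and 12.1 FPKM in Control. For Cdkn1b they were Hif1a, Nrcam, Id4, Ttyh1 and Jazf1 (r 0.954 to 0.974), and for Ccnd2 they were Fbxl14, Ptprt, Nhsl1, Lrig1 and Paqr8 (r 0.932 to 0.948).

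The kinases that D cyclins and INK4 proteins bind are Cdk4 and Cdk6. Cdk4 had 222, 232 and 227 FPKM in the double group, 96.4, 211 and 211 FPKM in b-catenin-OE, 181, 193 and 195 FPKM in Notch1-KO, and 98.9, 197 and 192 FPKM in Control. Samples 1 of b-catenin-OE and of Control were far below the rest. Cdk6 had 0.655 to 1.63 FPKM over the 12 samples, far below Cdk4. Of 11 kinases and later cyclins, none passed limma's adjusted threshold in any of the 6 comparisons, with at most 4 at an unadjusted p under 0.05 (double group versus Notch1-KO). Without sample 1 of b-catenin-OE, 2 rose in each of the double group versus Control, b-catenin-OE versus Control and the double group versus Notch1-KO. Of all 14581 rows, 1213, 542 and 1014 rose in these comparisons in that setting, against 858, 199 and 716 over all 12 samples. A model of the 2 groups alone also called 2 as higher in the double group versus Control and 2 versus Notch1-KO. Over all rows that model called 737 and 985 as higher.

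Of 11 tested pocket proteins and E2F factors, 1 rose in the double group versus Control, where 5.88% of all rows rose. This was E2f3, an activator of S phase genes. It had 12.01 ± 0.661 FPKM in the double group and 8.51 ± 0.205 FPKM in Control (0.47 ± 0.10, adjusted p = 0.0110). It also rose against Notch1-KO (0.38 ± 0.10, adjusted p = 0.0392), a call lost in 9 of 12 settings that left out 1 sample. These counts of 1 became 4 and 4 without sample 1 of b-catenin-OE, and 1 of the 11 then rose in b-catenin-OE versus Control. Of 13 genes for the breakdown of cyclins and inhibitors, Cks1b alone rose in the double group versus Control, where 5.88% of all rows did. Cks1b is the cofactor with which SCF-Skp2 marks the Cdkn1b protein for breakdown. It had 66.5 ± 2.66 FPKM in the double group and 32.1 ± 10.6 FPKM in Control (1.10 ± 0.29, adjusted p = 0.0303). That call was lost without any 1 double sample (adjusted p = 0.0726 to 0.0862) or sample 1 of Control (0.80, adjusted p = 0.0857). With sample 1 of b-catenin-OE left out, 3 of the 13 rose in the double group versus Control, 3 in the double group versus Notch1-KO and 2 in b-catenin-OE versus Control. Of all 14581 rows, 1213, 1014 and 542 rose in these comparisons in that setting.

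Of 19 tested other regulators of these genes, 1 rose and 3 fell in the double group versus Control. Over all rows 5.88% rose and 6.64% fell there. Hes1, a repressor of Cdkn1b in other mouse tissues, had 21.5 ± 2.88 FPKM in the double group and 12.8 ± 0.830 FPKM in Control (0.72 ± 0.17, adjusted p = 0.0193). Klf4, an activator of Cdkn1a in other tissues, fell (-0.93 ± 0.19, adjusted p = 0.00728), with 6.76 ± 1.15 FPKM in the double group and 13.5 ± 3.92 FPKM in Control. Sox2 fell by 0.81 ± 0.19 (adjusted p = 0.0150) and Cebpa by 0.88 ± 0.25 (adjusted p = 0.0386). The Klf4 call held without any 1 sample, and the Cebpa call was lost in 7 of 12 such settings. The Hes1 call was lost without sample 1 of the double group or sample 2 or 3 of Control (adjusted p = 0.0598 to 0.0708), and the Sox2 call without sample 2 of the double group or sample 2 or 3 of Control (adjusted p = 0.0608 to 0.0657). In the single changes against Control none of the 19 passed in limma, with 2 at an unadjusted p under 0.05 in each. Against b-catenin-OE, Klf4 fell in the double group (-0.82 ± 0.19, adjusted p = 0.0413), a call lost in 8 of 12 settings that left out 1 sample. Against Notch1-KO, Klf4 and Sox2 fell and Hes1 and Prox1 rose there, and leaving out 1 sample ended the Sox2, Hes1 and Prox1 calls in 1, 3 and 5 of 12 settings. Over all rows 4.91% rose and 5.21% fell in that comparison. Without sample 1 of b-catenin-OE, 4 of the 19 rose and 3 fell in the double group versus Control, and 1 rose in b-catenin-OE versus Control. Of all 14581 rows, 1213 rose and 1285 fell in the first of these, and 542 rose in the second.

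Markers of cycling cells were read beside these genes, and a link between their levels was not tested. Of 25 genes of G2 and M phase, 13 rose and none fell in the double group versus Control, where 5.88% of all rows rose. The 4 with the smallest p were Nek2 (1.43 ± 0.30), Plk1 (1.63 ± 0.35), Cenpf (1.12 ± 0.27) and Aurka (1.23 ± 0.30), with adjusted p of 0.00997, 0.0105, 0.0188 and 0.0202. The list summed to 178, 126 and 130.2 FPKM in the double group, 33.8, 168 and 166 FPKM in b-catenin-OE, 55.7, 58.8 and 58.0 FPKM in Notch1-KO, and 48.5, 42.9 and 39.7 FPKM in Control. Sample 1 of b-catenin-OE was below every Control sample, and its samples 2 and 3 were in the range of the double group. The list's median log2 difference was 1.35 in the double group versus Control and 0.96 in b-catenin-OE versus Control, against -0.02 and -0.01 over all rows.

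None of the 25 passed in the other comparisons in limma. In b-catenin-OE versus Control 14 had an unadjusted p under 0.05, and in the double group versus Notch1-KO 19 had. Without sample 1 of b-catenin-OE, 24 rose in b-catenin-OE versus Control, 23 in the double group versus Control and 23 in the double group versus Notch1-KO. Of all 14581 rows, 542, 1213 and 1014 rose in these comparisons in that setting. In the double group versus Control the list's count was 2 or 3 without any 1 double sample or without sample 2 or 3 of Control, and 8 without sample 1 of Control. Of 25 S phase genes, over all 12 samples only Fen1 rose, in the double group versus Control (0.57 ± 0.16, adjusted p = 0.0437) and against Notch1-KO (0.70 ± 0.16, adjusted p = 0.0186). Over all rows 5.88% and 4.91% rose in these comparisons. Leaving out 1 sample ended the first Fen1 call in 7 of 12 settings and the second in 3. When sample 1 of b-catenin-OE was left out, 11 of the 25 S phase genes rose in the double group versus Control, 9 in the double group versus Notch1-KO and 7 in b-catenin-OE versus Control. The summed S phase level was 243, 236 and 239 FPKM in the double group, 134, 247 and 252 FPKM in b-catenin-OE, 176, 188 and 183 FPKM in Notch1-KO, and 177, 198 and 193 FPKM in Control.

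**Figure D5:**
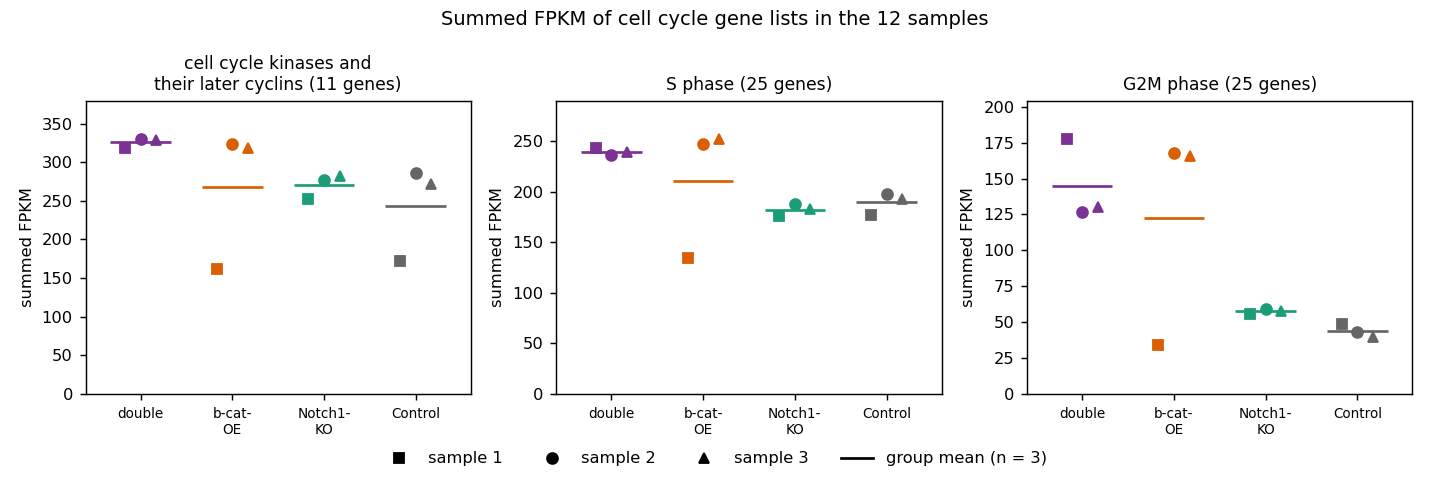
Summed FPKM of the kinases with later cyclins, of S phase genes and of G2 and M phase genes in every sample, from 0, with a line for the group mean; groups run double, b-catenin-OE, Notch1-KO and Control. Samples 2 and 3 of b-catenin-OE reach 168 and 166 FPKM for G2 and M phase, while its sample 1 has 33.8 FPKM, under the lowest Control sample at 39.7 FPKM.

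The tissue holds many cell types, and in bulk RNA fewer cells of a type and less RNA per cell cannot be told apart. Cdkn1b is high in supporting cells, whose markers also moved. Of 14 tested supporting cell markers, 1 rose and 8 fell in the double group versus Control (5.88% and 6.64% of all rows). Their summed level was 1120 to 1420 FPKM in the double group, 1749 to 2072 FPKM in b-catenin-OE, 1579 to 1864 FPKM in Notch1-KO and 2111 to 2402 FPKM in Control, so no double sample reached any other group. The sums lean on abundant markers such as S100a1, with 407 to 1301 FPKM over the samples. Versus Control the list's median log2 difference was -0.76 in the double group, 0.02 in b-catenin-OE and -0.31 in Notch1-KO. The marker that rose in the double group versus Control was Lgr5, itself a b-catenin target. Those that fell there included Lfng (-1.79 ± 0.15, adjusted p = 2.89e-05) and Hes5 (-2.13 ± 0.35, adjusted p = 0.00206), which belong to the Notch pathway. Lfng also fell in Notch1-KO versus Control (-1.72 ± 0.15, adjusted p = 0.00159), the only marker of this list called there. The part of the supporting cell markers in the lower Cdkn1b level was not tested.

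Of 14 hair cell markers 4 rose in Notch1-KO versus Control (0.535% of all rows) and 4 fell in the double group versus Notch1-KO (5.21%). The sums were 402 to 678 FPKM in the double group, 455 to 533 FPKM in b-catenin-OE, 680.3 to 944 FPKM in Notch1-KO and 603 to 787 FPKM in Control. These sums lean on abundant markers such as Ocm, with 84.0 to 453 FPKM over the samples. In the double group versus Control none of the 14 passed in limma, with 3 at an unadjusted p under 0.05. Their median log2 difference there was 0.25, so the sums and the typical marker leaned different ways. Markers of Schwann cells and myelin summed to 653 to 820 FPKM in the double group, 1931 to 2013 FPKM in b-catenin-OE, 846 to 1233 FPKM in Notch1-KO and 797 to 3407 FPKM in Control. Markers of spiral ganglion neurons summed to 169 to 185 FPKM in the double group, 288 to 553 FPKM in b-catenin-OE, 278 to 285 FPKM in Notch1-KO and 240.4 to 519 FPKM in Control. The double group was the lowest for both glia and neurons apart from overlaps with Control for glia. The Control range was wide through its sample 1. That sample had 3407 FPKM for glia against 797 and 821 FPKM in samples 2 and 3. For neurons it had 519 FPKM against 240.4 and 249 FPKM. Sample 1 of Control also had the highest sums of all samples for macrophage and immune markers (505 FPKM) and for bone and cartilage (2513 FPKM). Next were sample 1 of the double group (343 FPKM) and sample 1 of b-catenin-OE (1918 FPKM). Markers of endothelium and pericytes had their highest sum in the double group, at 364 to 477 FPKM. It was 242 to 318 FPKM in b-catenin-OE, 214 to 278 FPKM in Notch1-KO and 251 to 278 FPKM in Control. Most of this sum was Emcn, with 381 ± 77.5 FPKM in the double group and 167 ± 27.2 FPKM in Control. Of the 10 markers Emcn alone rose in the double group versus Control, while Cdh5 and Kdr fell. The median log2 difference of the list was -0.47 there, opposite in sign to that of Emcn. The defining markers listed at 0 in some samples were Bglap and Sost of bone, Mlana of melanocytes and Slc4a1 of red cells. The part of these cell types in the levels of the D cyclins and inhibitors was not tested.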

How the data were processed

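RNA sequencing values of 12 pooled mouse cochlear samples were used. The authors deposited FPKM values in 1 table of 23598 rows. For its making, the submitters' processing notes list Cufflinks 2.2.1, Cuffdiff, TopHat2 2.0.10, Bowtie2 2.2.1, Trimmomatic 0.23 and CASAVA 1.8, with the build mm10. Neither annotation nor strand nor scaling between libraries is given in the sources used here. Log2 fold changes and p-values of the authors, each versus Control, stand in the same deposited table, where the lowest p-value is 5e-05. A gene with several rows was taken as the row with the highest mean, and 1 was added to the start of each deposited locus.

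Sample titles gave the groups and numbers. Tests used limma 3.58.1 (R 4.3.3) with log2(FPKM + 0.5) as the measure, on the 14581 rows that reached 0.5 FPKM in 3 or more samples. One model held the 4 group means over 12 samples, with a trended empirical Bayes variance and 8 residual degrees of freedom. P-values are two-sided, with Benjamini-Hochberg adjustment inside each of 6 comparisons. The log2(FPKM + 0.5) scale understates the change of low genes. The code was tested on simulated data. FPKM allow no count test.

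The table holds no depth. In samples 2 and 3, 78.2% to 82.5% of low values lay within 0.1 of whole fragments (20% by chance, before fitting). Their spacing gives 18500000 to 26400000 fragments, provided that FPKM had no further scaling. For samples 1 the share was 28.7% to 42.2% and depth is unknown.

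The genes and the lists of pathway genes and markers were chosen with earlier results of these data known. The rule for named genes takes all 10 genes of the set, Notch1 and Ctnnb1. It adds up to 4 called genes with the smallest p per list and comparison, and the 5 genes most alike to Ccnd1, Ccnd2, Cdkn1a and Cdkn1b. Predicted, ribosomal and small RNA genes were left out of the last. Axin2, Trp53, Cdk4, Cdk6, Oraov1 and single list members beyond the rule were chosen after their values were seen. The alternatives were another pseudocount (0.1), no filter, scaling by median ratios, samples 2 and 3 averaged or alone, the sample number as a block, a model of the 2 groups alone and leaving out each sample. Those for genes outside the set and for lists were added after seeing the data.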

Additional observations from a re-analysis of the deposited data

How the results depend on the processing

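Of 11 calls among the D cyclins and inhibitors, 11 were kept with a pseudocount of 0.1 and 11 with a replicate block for sample number, 10 with no filter (Cdkn1c in the double group versus b-catenin-OE lost, adjusted p = 0.0581) and 10 after scaling (Cdkn1b against Notch1-KO lost, 0.0592). A model of the 2 groups alone kept 9. Averaging samples 2 and 3 leaves fewer samples and kept 1, Cdkn1a in the double group versus Notch1-KO; in the double group versus Control the adjusted p became 0.0794 for Ccnd1, 0.0754 for Cdkn1a, 0.0670 for Cdkn1b and 0.184 for Cdkn1c. Samples 2 and 3 alone kept 11 and added 14. Leaving out 1 sample kept 7 to 10. Directions held for all 11 calls in these settings.

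Counts over all rows are given in the order double against Control, b-catenin-OE versus Control, Notch1-KO versus Control, double against b-catenin-OE, double against Notch1-KO, and departure from the sum. They were 1826, 327, 125, 396, 1476 and 3. With samples 2 and 3 averaged limma called 259, 10, 0, 0, 175 and 0, with 602, 1202 and 454 rows at an unadjusted p under 0.05 where it called 0. With samples 2 and 3 alone it called 6134, 5685, 1735, 4281, 6189 and 2810. With the replicate block it called 2934, 635, 237, 826, 2290 and 53. A model of the 2 groups alone called 65 in b-catenin-OE and 8 in Notch1-KO versus Control and 228 in the double group versus b-catenin-OE. The departure had 1 call with a pseudocount of 0.1 and 7 with no filter. Leaving out 1 sample gave 1128 to 2498, 126 to 901, 14 to 213, 113 to 1023, 790 to 2060, and 0 to 67. The cause was not tested. With samples 2 and 3 alone, Klf4 (0.22) and H19 (0.17) in b-catenin-OE and Sox2 (-0.29) in Notch1-KO, against Control, passed with a sign opposite to that over all samples.

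The sample numbers were not taken as pairs. Same-numbered samples deviated from their group means with correlations of 0.0545 to 0.551, over 0.1 in 17 of 18 pairs, and 11 of 12 samples correlated best with their own number. Whether samples 2 and 3 are separate pools is not known; where they are not, the p-values are too small. In Notch1-KO versus Control the replicate block let Notch1 pass (adjusted p = 0.0156). Axin2 in b-catenin-OE versus Control (0.00713), Trp53 in the double group versus Control (0.0399) and Nap1l4 in the double group (0.00189), b-catenin-OE (0.0107) and Notch1-KO (0.0344) versus Control also passed with it. With samples 2 and 3 averaged, adjusted p in the double group versus Control became 0.137 for Klf4, 0.156 for Notch1, 0.184 for Cks1b, 0.216 for Hes1, 0.255 for Cebpa, 0.269 for E2f3, 0.280 for Sox2, 0.360 for Fen1 and 0.0794 for Igf2, so none of these calls was kept. The 13 calls of G2 and M phase genes in the double group versus Control became 0 in limma with samples 2 and 3 averaged (19 at an unadjusted p under 0.05), 8 with no filter and 23 in a model of the 2 groups alone.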

Other observations

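Cdkn1c lies in an imprinted cluster on chromosome 7, and its neighbours in the table were read after their values were seen. Slc22a18, Kcnq1, Phlda2 and Nap1l4 lie 12.4, 31.3, 40.2 and 52.3 kb away. In the model of all 12 samples none of these 4 passed in the double group versus Control, where Cdkn1c rose. Nap1l4 had 63.2, 85.9 and 87.4 FPKM in the double group and 93.9, 111 and 111 FPKM in Control (adjusted p = 0.102). Kcnq1, a potassium channel subunit, fell in the double group versus Notch1-KO (-0.97 ± 0.20, adjusted p = 0.00919), with 3.89, 2.21 and 2.86 FPKM in the double group and 4.92, 7.68 and 6.26 FPKM in Notch1-KO. That call was lost without sample 2 of Notch1-KO (adjusted p = 0.0506).

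Igf2, a growth factor expressed from the paternal allele in mice, lies 788 kb from Cdkn1c. It fell in the double group versus Control (-0.98 ± 0.16, adjusted p = 0.00189). Igf2 also fell in b-catenin-OE versus Control (-0.73 ± 0.16, adjusted p = 0.0338) and in the double group versus Notch1-KO (-0.60 ± 0.16, adjusted p = 0.0319). Leaving out 1 sample ended these last calls in 8 and 6 of 12 settings. Igf2 levels were 101, 98.2 and 96.1 FPKM in the double group, 141, 107 and 105 FPKM in b-catenin-OE, 160.0, 145 and 145 FPKM in Notch1-KO, and 249, 169 and 175 FPKM in Control. The double samples were below all others. H19, a non-coding RNA expressed from the maternal allele next to Igf2, had 339, 374 and 367 FPKM in the double group and 419, 348 and 362 FPKM in Control, and did not pass.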
